A study of Rattus norvegicus with 12 samples.

Results

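Ruminococcaceae is a family of gut bacteria within the Clostridia, and its members were followed here in rat faeces as amplicon sequence variants (ASVs), the exact 16S rRNA gene sequences inferred from the reads. Every ASV whose deposited lineage names the family was taken, which gave 499 of 7238 bacterial and archaeal ASVs, and these were summed by genus name into 18 of the 401 genus-level features of the table. The 16S rRNA gene, carried by all bacteria, was amplified from faecal DNA to learn whether the make-up of the gut community differed among 4 groups of rats, each with 3 libraries. SAH+Tet+ABX rats had experimental subarachnoid haemorrhage, bleeding into the space around the brain, and received tetrandrine and ABX, the usual short form for antibiotics. SAH+Tet rats had the haemorrhage and tetrandrine, an alkaloid of the plant Stephania tetrandra that blocks calcium channels. SAH rats had the haemorrhage alone, and Sham rats the sham procedure. Haemorrhage was thus shared by the first 3 groups and tetrandrine by the first 2, and none of the 4 groups had antibiotics or tetrandrine without haemorrhage. Which agents ABX stands for, the doses, the time of sampling, and the strain, age and housing of the rats were not among the sources used here. Nothing in the labels ties a library to an animal of its own, so the p-values measure the spread between these libraries and no more.

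Ruminococcaceae are strict anaerobes of the large bowel, and many of them ferment plant fibre or starch to short-chain fatty acids, which the host absorbs. Ruminococcus holds the best-known fibre degraders of the family: Ruminococcus flavefaciens breaks down cellulose in the rumen, and in the human colon Ruminococcus bromii degrades resistant starch. Relatives such as Faecalibacterium and Subdoligranulum are known as butyrate producers of the human gut.

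Ruminococcus held 101 of the 499 ASVs. Another 144 ASVs had no genus name and are called unnamed Ruminococcaceae, 82 were labelled Incertae Sedis and 69 uncultured, both database labels without a described genus, and 9 carried the family's own name in the genus field and are called family-labelled. The named genera were [Eubacterium] siraeum group with 19 ASVs, Anaerotruncus with 16, Harryflintia with 15, UBA1819 with 11, Negativibacillus with 9 and Pygmaiobacter with 5. The remaining 7 names, Paludicola, Anaerofilum, Faecalibacterium, Candidatus Soleaferrea, Caproiciproducens, DTU089 and Subdoligranulum, averaged less than 0.01% of reads. Species names were rare: 1 ASV, Ruminococcus ASV 29, was named Ruminococcus flavefaciens, and 5 of the uncultured ASVs were named [Clostridium] leptum. Because the ASVs have no identifiers in the table, each is numbered by its rank of mean share within its genus, so that Ruminococcus ASV 1 is the most abundant one of that genus.

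The libraries held 211450 to 531426 reads. All 3 SAH+Tet+ABX libraries, SAH+Tet 3 and SAH 1 had fewer than 300000 reads and the other 7 had more, so antibiotics and low depth go together in this design. Where a library had 0 reads of an ASV, a share below 0.000565% (SAH 2) to 0.00142% (SAH+Tet+ABX 1), the worth of 3 reads, could still be there by counting error alone. Shares are relative to all reads of a library, so fewer cells of a genus and more cells of other bacteria cannot be told apart, and bacterial load was not measured.

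The 3 SAH libraries were related to each other in an uneven way, and results on SAH are therefore also given without single libraries. Of the 71 ASVs of the whole table with at least 100 reads in SAH 1 and 0 in SAH 3, 0 were missing from SAH 2. Their share in SAH 2 was 0.463 times that in SAH 1 (median), with an interquartile range of 0.275 on the log2 scale. Of the 229 ASVs with at least 100 reads in SAH 2 and 0 in SAH 1, 5 were missing from SAH 3. For the 10 of these that were Ruminococcaceae, 0 were missing and the share in SAH 3 was 0.984 times that in SAH 2 (median), with an interquartile range of 0.200 on the log2 scale. Of the 258 ASVs with at least 100 reads in SAH 3 and 0 in SAH 1, 37 were missing from SAH 2. Nearly all variants that SAH 2 did not share with SAH 1 were thus found in SAH 3, at a similar share. What lies behind this was not tested. Aerobic Gram-positive genera (10 names such as Corynebacterium, Jeotgalicoccus and Staphylococcus, a list drawn up with earlier results of these data known) also split the groups. Their summed share was 0.0426, 0.0196 and 0.00980% in SAH+Tet+ABX, 13.0, 19.8 and 0.0211% in SAH+Tet, 0.0632, 12.3 and 11.3% in SAH and 0.0113, 0.0225 and 0.0148% in Sham.

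**Figure D1:**
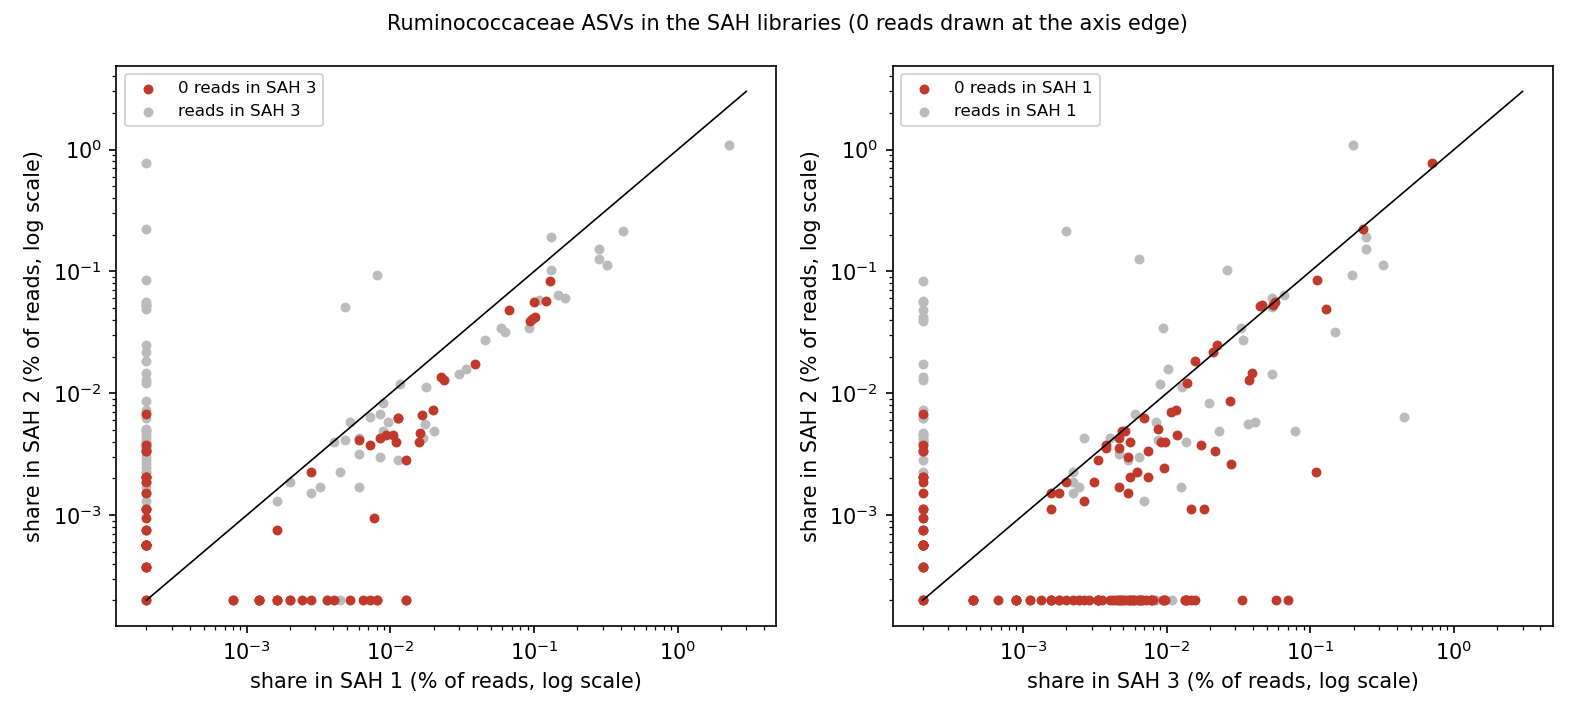
Shares of Ruminococcaceae ASVs in SAH 2 (percent of reads, log axis) against SAH 1 on the left and SAH 3 on the right, with 1 point per ASV, 0 reads drawn at the axis edge and a line of equal shares. Red points, the ASVs with 0 reads in the SAH library not plotted, lie along a band below the line on the left and, above 100 reads, mostly close to the line on the right.

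The family as a whole took a small share of the reads, and that share was lowest with antibiotics. Ruminococcaceae made up 0.749, 2.73 and 2.8% in SAH+Tet+ABX, 7.33, 7.8 and 5.56% in SAH+Tet, 5.84, 4.68 and 4.92% in SAH and 5.54, 4.05 and 8.12% in Sham. The 3 SAH+Tet+ABX libraries lay below all 9 others, whose ranges overlapped. The mean was 2.09 ± 1.16% in SAH+Tet+ABX, 6.9 ± 1.18% in SAH+Tet, 5.15 ± 0.613% in SAH and 5.91 ± 2.06% in Sham (SD, n = 3 each). The share differed among the 4 groups by an exact permutation test over 369600 arrangements (adjusted p = 0.03025 over 94 families, of which 30 passed). All adjustments follow Benjamini and Hochberg across the whole table, and a result is said to pass below 0.05. It did not pass when labels were permuted within the depth classes (adjusted p = 0.1238, exact permutation), nor without any one of 6 libraries (Sham 1, SAH 2, SAH 3, SAH+Tet 1, SAH+Tet 2 and SAH+Tet+ABX 1), where the adjusted p was 0.06043 to 0.0833. With the aerobic genera taken out of the library totals the value was close to the first (adjusted p = 0.03197, exact permutation).

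Oscillospiraceae, the neighbouring family of gut anaerobes in the same order, was likewise lowest with antibiotics. Its share was 2.27, 1.66 and 3.3% in SAH+Tet+ABX, 8.47, 5.94 and 8.91% in SAH+Tet, 5.28, 3.52 and 5.08% in SAH and 7.11, 6.46 and 8.53% in Sham. Every SAH library lay below every Sham library in this share, while the Ruminococcaceae shares of SAH and Sham overlapped. The ratio of Ruminococcaceae to Oscillospiraceae reads was 0.940 ± 0.662 in SAH+Tet+ABX, 0.935 ± 0.350 in SAH+Tet, 1.13 ± 0.181 in SAH and 0.786 ± 0.163 in Sham (SD, n = 3 each). Over the 4 groups its test did not pass (p = 0.7505, exact permutation). All SAH libraries (at least 0.969) lay above all Sham libraries (at most 0.953), with p = 0.1 for that pair (exact permutation), the smallest value possible. Among Oscillospiraceae genera on a list of 7 names, 6 were tested between SAH+Tet+ABX and SAH+Tet and 3 passed, 1 higher and 2 lower. Of 8 names of short-chain fatty acid producing Clostridia in other families, 6 were tested and 1 passed, lower. In the comparisons without antibiotics 0 members of either list passed with edgeR.

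Ruminococcus supplied most of the family's reads in all libraries except SAH+Tet+ABX 1. It made up 0.00189, 2.07 and 2.06% in SAH+Tet+ABX, 4.07, 5.74 and 2.88% in SAH+Tet, 4.89, 3.73 and 2.72% in SAH and 2.93, 2.12 and 4.82% in Sham. The value of SAH+Tet+ABX 1 came from 4 reads, and the other 2 libraries of that group lay just below the lowest library without antibiotics, Sham 2. Among the 4 groups the test fell short (adjusted p = 0.06133 over 202 genus-level features, exact permutation). The fitted log2 fold change of SAH+Tet+ABX over SAH+Tet was -1.42 (SE 1.36, adjusted p = 0.416, edgeR). Within the family, Ruminococcus held 0.253, 75.9 and 73.7% of reads in SAH+Tet+ABX, 55.5, 73.5 and 51.8% in SAH+Tet, 83.7, 79.7 and 55.2% in SAH and 52.8, 52.4 and 59.3% in Sham. The other genera together therefore took 0.747, 0.659 and 0.736% in SAH+Tet+ABX, 3.26, 2.06 and 2.68% in SAH+Tet, 0.949, 0.948 and 2.21% in SAH and 2.61, 1.93 and 3.31% in Sham, with all 3 SAH+Tet+ABX libraries close together and below every other library.

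**Figure D2:**
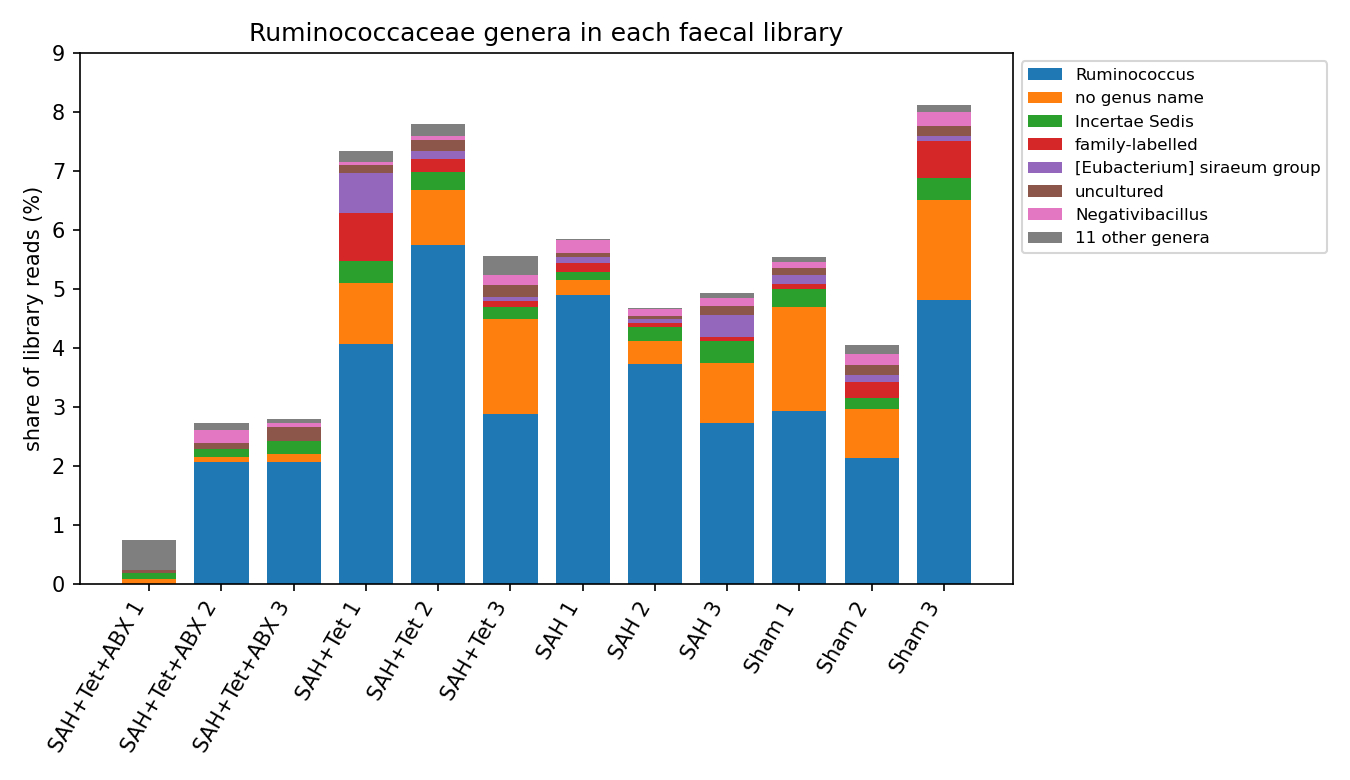
Share of library reads (percent) of the Ruminococcaceae genera, stacked in 1 bar for each of the 12 libraries in the order SAH+Tet+ABX, SAH+Tet, SAH and Sham. The SAH+Tet+ABX bars reach 0.749, 2.73 and 2.80%, the first almost without Ruminococcus, and all other bars reach at least 4.05%.

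In the antibiotic libraries some genera of the family were undetected and others had reads in every library. Of the 14 Ruminococcaceae genera with enough reads to test (18 in all), 5 fell in SAH+Tet+ABX against SAH+Tet and 0 rose (edgeR's quasi-likelihood test, adjusted p below 0.05 over 202 features). Across the table as a whole, 37.6% of genera passed in either direction and 28.7% fell, so the family's share of 35.7% was near the background. Of 7 aerobic Gram-positive genera tested, 5 fell in the same comparison, and their part in these results was not tested. The unnamed Ruminococcaceae took 0.0752, 0.076 and 0.128% in SAH+Tet+ABX, 1.03, 0.947 and 1.62% in SAH+Tet, 0.258, 0.392 and 1.03% in SAH and 1.77, 0.83 and 1.68% in Sham. All 3 SAH+Tet+ABX libraries lay below all others, and the log2 fold change against SAH+Tet was -3.58 (SE 0.73, adjusted p = 0.0048, edgeR). With limma on centred log-ratios the call was lost (-1.34 on the log2 scale, adjusted p = 0.2063). The other 4 had 0 reads in every antibiotic library, so their folds are lower bounds, computed here and below against 3 reads per library.

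[Eubacterium] siraeum group, named after a human gut anaerobe, made up 0.678, 0.147 and 0.066% in SAH+Tet, 0.102, 0.0751 and 0.373% in SAH and 0.157, 0.125 and 0.0731% in Sham, with 0 reads in every library of SAH+Tet+ABX. It was at least 227-fold lower in SAH+Tet+ABX than in SAH+Tet (adjusted p = 0.001, edgeR). The family-labelled reads made up 0.817, 0.217 and 0.104% in SAH+Tet, 0.146, 0.0636 and 0.0773% in SAH and 0.0811, 0.277 and 0.626% in Sham, with 0 reads in every library of SAH+Tet+ABX. They were at least 290-fold lower (adjusted p = 0.001, edgeR). Both were led by SAH+Tet 1, and the 9 libraries without antibiotics overlapped between their groups. Pygmaiobacter made up 0.0144, 0.0112 and 0.0295% in SAH+Tet, 0.00403, 0.00433 and 0.00914% in SAH and 0.0192, 0.0417 and 0.0206% in Sham, with 0 reads in every library of SAH+Tet+ABX. This genus was at least 14-fold lower with antibiotics (adjusted p = 0.000872, edgeR). Pygmaiobacter was also the genus of the family that passed the exact permutation over 4 groups both as planned (adjusted p = 0.0102) and within depth classes (adjusted p = 0.04489). Its SAH libraries lay below the SAH+Tet and the Sham libraries, with no overlap. Anaerofilum, at no more than 0.00393% of reads in any library, was at least 2.13-fold lower (adjusted p = 0.0194, edgeR). That call was lost with limma (adjusted p = 0.1696) and, with edgeR, without the filter on low counts (adjusted p = 0.07284), with the replicate block (adjusted p = 0.0701) and with depth class as a term (adjusted p = 0.056).

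The other genera did not pass in this comparison with edgeR. Incertae Sedis made up 0.107, 0.14 and 0.232% in SAH+Tet+ABX, 0.377, 0.296 and 0.19% in SAH+Tet, 0.143, 0.232 and 0.364% in SAH and 0.295, 0.189 and 0.387% in Sham. The uncultured reads made up 0.0539, 0.0982 and 0.235% in SAH+Tet+ABX, 0.13, 0.187 and 0.207% in SAH+Tet, 0.0725, 0.0478 and 0.151% in SAH and 0.128, 0.161 and 0.173% in Sham. Both overlapped between SAH+Tet+ABX and SAH+Tet and did not pass. Anaerotruncus, whose human species Anaerotruncus colihominis makes butyrate, took 0.472, 0.0478 and 0.0151% in SAH+Tet+ABX, 0.083, 0.121 and 0.198% in SAH+Tet, 0.00201, 0.00188 and 0.0176% in SAH and 0, 0.0313 and 0.0202% in Sham. Its highest library was SAH+Tet+ABX 1, the one with 4 Ruminococcus reads, and 5 of the 6 libraries given tetrandrine lay above every SAH and Sham library. UBA1819, a name given to a genome assembled from metagenomes, took 0.0161, 0.0713 and 0.0466% in SAH+Tet+ABX, 0.0386, 0.00677 and 0.0251% in SAH+Tet, 0.00282, 0.00583 and 0.0169% in SAH and 0.0438, 0.0518 and 0.0512% in Sham. Here every SAH library lay below every Sham library, and the antibiotic libraries overlapped both groups. Negativibacillus took 0, 0.212 and 0.0662% in SAH+Tet+ABX, 0.0528, 0.066 and 0.17% in SAH+Tet, 0.209, 0.112 and 0.125% in SAH and 0.0873, 0.192 and 0.236% in Sham, and Harryflintia 0, 0.00811 and 0% in SAH+Tet+ABX, 0.0255, 0.0528 and 0.0616% in SAH+Tet, 0.00403, 0.00734 and 0.031% in SAH and 0.0226, 0.0201 and 0.024% in Sham. Each was at 0 in at least 1 antibiotic library and had reads in all 9 libraries without antibiotics. Harryflintia passed, lower in SAH+Tet+ABX, with DESeq2 (adjusted p = 0.02949) and with edgeR without SAH+Tet+ABX 2 (adjusted p = 0.002702). On centred log-ratios, limma called Paludicola and UBA1819 higher in SAH+Tet+ABX. These ratios shift the median of all genera in this comparison to 0.01 on the log2 scale, against -1.60 with edgeR's scaling. Paludicola was also called higher with DESeq2 (1.69 on the log2 scale, adjusted p = 0.02504), and UBA1819 was not (adjusted p = 0.07849, DESeq2).

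In the groups without antibiotics, 0 of the 14 genera passed in any comparison with edgeR, and 0.0% of all genera passed. At an unadjusted p below 0.05 there were 2 in SAH against Sham, 2 in SAH+Tet against SAH and 0 in SAH+Tet against Sham, against 28.4, 19.6 and 17.5% of all genera. In the same order DESeq2 called 2, 1 and 0 (25.3, 15.5 and 17.0% of all genera) and limma 0 in each (4.12, 0.515 and 0.0% of all genera), so the family's counts were at or below the background. The DESeq2 calls were Pygmaiobacter and UBA1819, lower in SAH than in Sham, and Anaerotruncus, higher in SAH+Tet than in SAH. Separation without overlap is the other way to read 3 libraries a side, though an exact permutation of 3 against 3 cannot go below p = 0.1. In SAH against Sham, 3 of 14 genera lay wholly lower (23.2% of all genera did). Wholly higher in SAH+Tet than in SAH were 3 of 14 (12.9% of all genera). Between SAH+Tet and Sham, 2 lay wholly higher in SAH+Tet (10.3% of all genera) and 1 wholly lower (12.9% of all genera). Under antibiotics, 7 lay wholly lower in SAH+Tet+ABX than in SAH+Tet (32.7% of all genera). Over the 4 groups together, 4 of the 14 genera passed edgeR's test, against 34.7% of all genera. These comparisons share libraries (SAH enters 2 of them and SAH+Tet 3), so they are not independent of each other.

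The number of Ruminococcus variants per library was similar without antibiotics, while the variants themselves were not. SAH+Tet+ABX libraries held 1, 4 and 4 Ruminococcus ASVs, against 45, 43 and 26 in SAH+Tet. SAH libraries held 28, 43 and 32, and Sham libraries 39, 28 and 33. Scaled to the smallest library total of 211450 reads, the expected numbers were 1, 3.99 and 3.98 in SAH+Tet+ABX, 43.6, 40.2 and 26.0 in SAH+Tet, 28.0, 41.4 and 31.8 in SAH and 38.4, 27.7 and 32.3 in Sham, so depth changed them little. The effective number of ASVs, which weights each by its share, averaged 1.43 ± 0.555 in SAH+Tet+ABX, 11.3 ± 2.62 in SAH+Tet, 11.7 ± 2.79 in SAH and 11.5 ± 3.09 in Sham (SD, n = 3 each). Of the 101 ASVs, 55 had reads in 1 group only (54.5%, against 60.7% of all ASVs of the table). These held 7.01% of the Ruminococcus reads (6.97% for all ASVs). Those of 3 groups, 29 ASVs, held 62.1% of the reads (30.9% for all ASVs). A single one, ASV 6, had reads in all 4 groups, with 2.39% of the reads (48.3% for all ASVs). In all 12 libraries 0 had reads (0.87% of all ASVs). In all 9 libraries without antibiotics 2 had reads (1.98%, against 3.58% of all ASVs), with 9.88% of the reads (45.1% for all ASVs). The rest of the family had 221 of 398 ASVs (55.5%) in 1 group only and 12.3% of its reads in them.

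The most abundant Ruminococcus variant differed among libraries, also within groups, while ASV 1 led libraries of both SAH and Sham. Ruminococcus ASV 1 led SAH 1 and SAH 2 and Sham 1 and Sham 3, with 46.2, 29.3, 24.7 and 40.3% of their Ruminococcus reads. As a share of all reads it made up 0.00109, 0.00155 and 0% in SAH+Tet, 2.26, 1.09 and 0.197% in SAH and 0.723, 0 and 1.94% in Sham, with 0 reads in every library of SAH+Tet+ABX. It was at least 0.197% of reads in 5 of the 6 SAH and Sham libraries and 0 in Sham 2, and in SAH+Tet it was at a trace or at 0. Ruminococcus ASV 2 led SAH+Tet 1 and SAH+Tet 2, with 35.6 and 21.8% of their Ruminococcus reads. It made up 1.45, 1.25 and 0.0282% in SAH+Tet and 0.00282, 0 and 0% in Sham, with 0 reads in every library of SAH+Tet+ABX and SAH. Its share in SAH+Tet was at least 1118-fold above SAH, but SAH+Tet 3 was far below the other two, and the test of SAH+Tet against SAH did not pass (adjusted p = 0.1787, edgeR). SAH+Tet 3 was led by Ruminococcus ASV 7 (35.2% of its Ruminococcus reads), ASV 9 (19.3%) and ASV 15 (13.0%). Ruminococcus ASV 7 made up 0.0245, 0 and 1.01% in SAH+Tet, 0.285, 0.127 and 0.00646% in SAH and 0.00383, 0.0114 and 0.00327% in Sham, with 0 reads in every library of SAH+Tet+ABX. It was thus present in the Sham, SAH and SAH+Tet groups and high in 1 library.

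**Figure D3:**
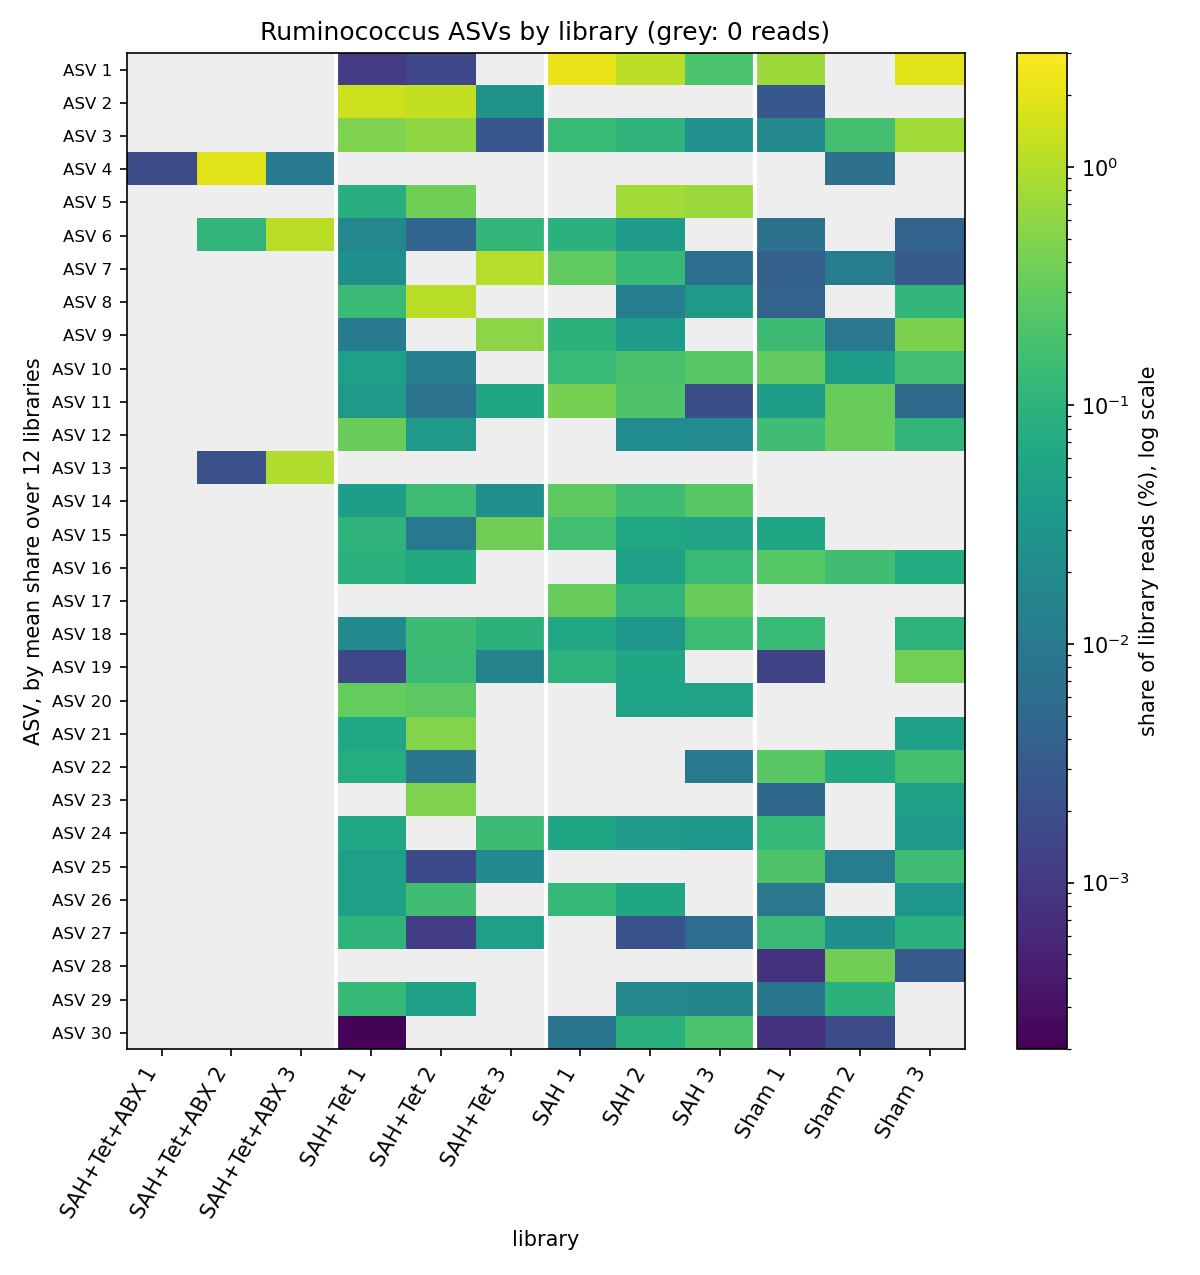
Shares of library reads (percent, colour on a log scale, grey for 0 reads) of the 30 most abundant Ruminococcus ASVs, in rows, in the 12 libraries, in columns. ASV 1 is high in SAH 1, SAH 2, Sham 1 and Sham 3, ASV 2 in SAH+Tet 1 and SAH+Tet 2, and ASV 4, ASV 6 and ASV 13 in SAH+Tet+ABX libraries.

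Some variants crossed the haemorrhage groups. Ruminococcus ASV 5, the leading variant of SAH 3 with 26.0% of its Ruminococcus reads, made up 0.0845, 0.378 and 0% in SAH+Tet and 0, 0.778 and 0.708% in SAH, with 0 reads in every library of SAH+Tet+ABX and Sham. It had reads in SAH 2, SAH 3, SAH+Tet 1 and SAH+Tet 2, the same 4 libraries that were rich in aerobic Gram-positive genera, and in no other; the part of those genera in this was not tested. Ruminococcus ASV 20 had reads in the same 4 libraries only, at 0.306, 0.261 and 0% in SAH+Tet and 0, 0.0531 and 0.0546% in SAH. It was picked after its values were seen, so it adds no support for a shared pattern. Ruminococcus ASV 14 made up 0.0437, 0.152 and 0.0242% in SAH+Tet and 0.281, 0.152 and 0.244% in SAH, with 0 reads in every library of SAH+Tet+ABX and Sham. All 6 haemorrhage libraries without antibiotics carried it and none of Sham did, which put it at least 379-fold higher in SAH than in Sham and at least 123-fold higher in SAH+Tet than in Sham. Ruminococcus ASV 17 made up 0.321, 0.113 and 0.319% in SAH, with 0 reads in every library of SAH+Tet+ABX, SAH+Tet and Sham. It was the variant seen in all SAH libraries and in none of the other 9, at least 422-fold above Sham. For both, SAH against Sham did not pass with edgeR. ASV 17 met the minimum of reads for testing through SAH alone, and ASV 14 through SAH and SAH+Tet. Neither that test nor one over the 4 groups can therefore serve as evidence on them. Both variants were present in SAH 1 and in SAH 3, so their presence in SAH does not rest on SAH 2.

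The Ruminococcus reads of the antibiotic libraries lay mostly in ASV 4, ASV 6 and ASV 13. Ruminococcus ASV 4 supplied 94.6% of the Ruminococcus reads of SAH+Tet+ABX 2 and all 4 of SAH+Tet+ABX 1. It made up 0.00189, 1.96 and 0.0102% in SAH+Tet+ABX and 0, 0.00702 and 0% in Sham, with 0 reads in every library of SAH+Tet and SAH. Ruminococcus ASV 13 made up 0, 0.00214 and 0.959% in SAH+Tet+ABX, with 0 reads in every library of SAH+Tet, SAH and Sham. ASV 13 and ASV 6 together held nearly all Ruminococcus reads of SAH+Tet+ABX 3, with 46.5 and 53.0%. ASV 6, the variant of all 4 groups, made up 0, 0.108 and 1.09% in SAH+Tet+ABX, 0.017, 0.00464 and 0.117% in SAH+Tet, 0.0942, 0.0393 and 0% in SAH and 0.00726, 0 and 0.00423% in Sham. Its highest library was SAH+Tet+ABX 3. ASV 4 did not pass against SAH+Tet (at least 772-fold higher, adjusted p = 0.0647, edgeR), with its mean set by 1 library.

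The other named variants were spread over groups. Ruminococcus ASV 3 made up 0.46, 0.619 and 0.00264% in SAH+Tet, 0.131, 0.103 and 0.0263% in SAH and 0.0186, 0.175 and 0.783% in Sham, with 0 reads in every library of SAH+Tet+ABX. Ruminococcus ASV 10 made up 0.0448, 0.0134 and 0% in SAH+Tet, 0.131, 0.191 and 0.245% in SAH and 0.293, 0.0425 and 0.162% in Sham, with 0 reads in every library of SAH+Tet+ABX. Both had reads in all SAH and Sham libraries, and ASV 3 also in all 3 of SAH+Tet. Ruminococcus ASV 8 made up 0.141, 1.07 and 0% in SAH+Tet, 0, 0.0128 and 0.0377% in SAH and 0.00423, 0 and 0.118% in Sham, with 0 reads in every library of SAH+Tet+ABX, and SAH+Tet 2 was the highest library by far. Ruminococcus ASV 9 made up 0.0103, 0 and 0.555% in SAH+Tet, 0.0975, 0.0405 and 0% in SAH and 0.146, 0.00943 and 0.447% in Sham, with 0 reads in every library of SAH+Tet+ABX. Ruminococcus ASV 11 made up 0.0358, 0.00774 and 0.0585% in SAH+Tet, 0.417, 0.214 and 0.00201% in SAH and 0.0423, 0.325 and 0.00558% in Sham, with 0 reads in every library of SAH+Tet+ABX and, like ASV 3, had reads in all 9 libraries without antibiotics. Ruminococcus ASV 12 made up 0.335, 0.0356 and 0% in SAH+Tet, 0, 0.0218 and 0.0209% in SAH and 0.158, 0.317 and 0.106% in Sham, with 0 reads in every library of SAH+Tet+ABX, and ASV 15 made up 0.106, 0.00967 and 0.373% in SAH+Tet, 0.165, 0.0608 and 0.0544% in SAH and 0.0577, 0 and 0% in Sham, with 0 reads in every library of SAH+Tet+ABX. Among the groups without antibiotics these variants overlapped in nearly all comparisons, the exceptions being ASV 10, lower in every SAH+Tet library than in any of SAH, and ASV 12, lower in every SAH library than in any of Sham. In SAH+Tet+ABX against SAH+Tet, ASV 3 (at least 276-fold lower, adjusted p = 0.0243), ASV 10 (adjusted p = 0.0455) and ASV 11 (adjusted p = 0.0474) fell with edgeR. Ruminococcus ASV 29, the variant named Ruminococcus flavefaciens, made up 0.124, 0.0497 and 0% in SAH+Tet, 0, 0.0184 and 0.0158% in SAH and 0.00827, 0.0969 and 0% in Sham, with 0 reads in every library of SAH+Tet+ABX. It had 0 reads in SAH+Tet 3, SAH 1 and Sham 3.

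The turnover of variants can be put as the share of a library's Ruminococcus reads that lay in ASVs with 0 reads in all 3 libraries of another group. In SAH against Sham, 13.2, 34.4 and 55.3% of the SAH reads lay in ASVs absent from Sham, and 13.9, 33.1 and 5.64% of the Sham reads in ASVs absent from SAH. Over all ASVs of the table the means were 22.1 ± 2.06% for SAH and 13.9 ± 2.73% for Sham (SD, n = 3 each), so the Ruminococcus values straddled those of the community. The SAH mean of 34.3% was 44.9% without SAH 1, 34.3% without SAH 2 and 23.8% without SAH 3, the last of these near the 22.1% of the whole table. In SAH+Tet against SAH, 40.7, 42.6 and 12.5% of the SAH+Tet reads lay in ASVs absent from SAH, against 7.34, 6.70 and 16.6% of the SAH reads in ASVs absent from SAH+Tet. The table means were 19.1 ± 0.276% and 11.1 ± 0.683%. SAH+Tet 1 and SAH+Tet 2 were therefore above the community's value and SAH+Tet 3 below it. For the rest of the family the means were 32.5% of SAH reads absent from Sham and 57.0% of Sham reads absent from SAH. They were 40.0% of SAH+Tet reads absent from SAH and 24.3% of SAH reads absent from SAH+Tet. Such turnover was thus not particular to Ruminococcus.

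Shares were lower between SAH+Tet and Sham, at 13.2, 15.1 and 6.54% of the SAH+Tet reads and 0.399, 32.2 and 0.647% of the Sham reads, with table means of 13.2 ± 5.64% and 8.18 ± 0.736%. That SAH+Tet mean of 11.6% was 38.4% without Sham 1, since Ruminococcus ASV 2 had 0.00282% of the reads of Sham 1 and 0 in the other Sham libraries. The presence of a variant at a trace in 1 library thus set this value. In SAH+Tet+ABX against SAH+Tet, 100, 94.8 and 47.0% of the SAH+Tet+ABX reads lay in ASVs absent from SAH+Tet, the first of these from 4 reads, and 99.6, 99.9 and 95.9% of the SAH+Tet reads in ASVs absent from SAH+Tet+ABX. The table means were 21.6 ± 7.78% and 52.4 ± 4.29%. Libraries of the same group were also compared, by the share of Ruminococcus reads in ASVs absent from both of the other libraries. It averaged 0.0269% in SAH+Tet+ABX, where 1 library had 4 reads, 5.95% in SAH+Tet, 0.660% in SAH and 4.47% in Sham. Over all ASVs of the table it averaged 7.15, 7.39, 3.06 and 3.71% in the same order. This figure within groups leaves 2 libraries to look in rather than 3. When groups were compared in the same way, over pairs of libraries, the means were 32.7% of SAH+Tet reads absent from SAH and 12.2% of SAH reads absent from SAH+Tet. They were 35.9% of SAH reads absent from Sham and 19.9% of Sham reads absent from SAH, and 22.1% of SAH+Tet reads absent from Sham and 12.1% of Sham reads absent from SAH+Tet.

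**Figure D4:**
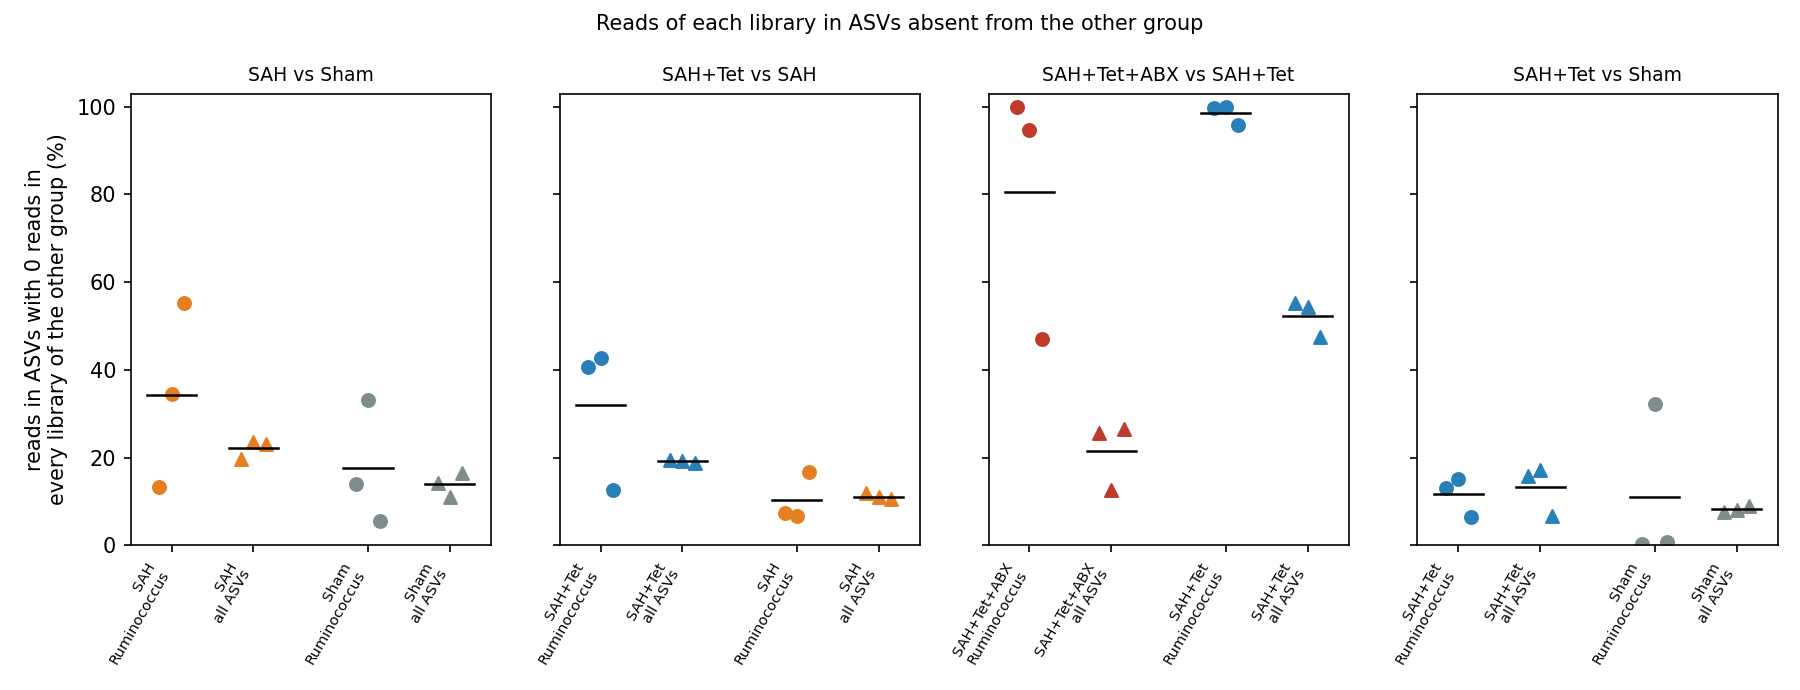
Percent of each library's reads that lie in ASVs with 0 reads in all 3 libraries of the group it is compared with, for Ruminococcus (circles) and for all ASVs (triangles), with 1 point per library and a bar at the mean. In SAH+Tet+ABX against SAH+Tet all 3 SAH+Tet points for Ruminococcus are above 95%, while in the other comparisons Ruminococcus points spread to both sides of those for all ASVs.

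Distances between the Ruminococcus profiles gave the same picture as a description, since they come from the same reads. The Bray-Curtis distance is 0 for equal profiles and 1 for profiles with no shared reads, and SAH+Tet+ABX 1 was left out because it held fewer than 100 Ruminococcus reads. SAH+Tet 1 and SAH+Tet 2 were 0.457 apart, but SAH+Tet 3 was 0.870 and 0.944 from them, as far as from libraries of other groups. SAH 2 was 0.353 from SAH 1 and 0.427 from SAH 3, while SAH 1 and SAH 3 were 0.715 apart. Sham 1 and Sham 3 were 0.484 apart. Library pairs within a group were therefore not all closer than pairs between groups.

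**Figure D5:**
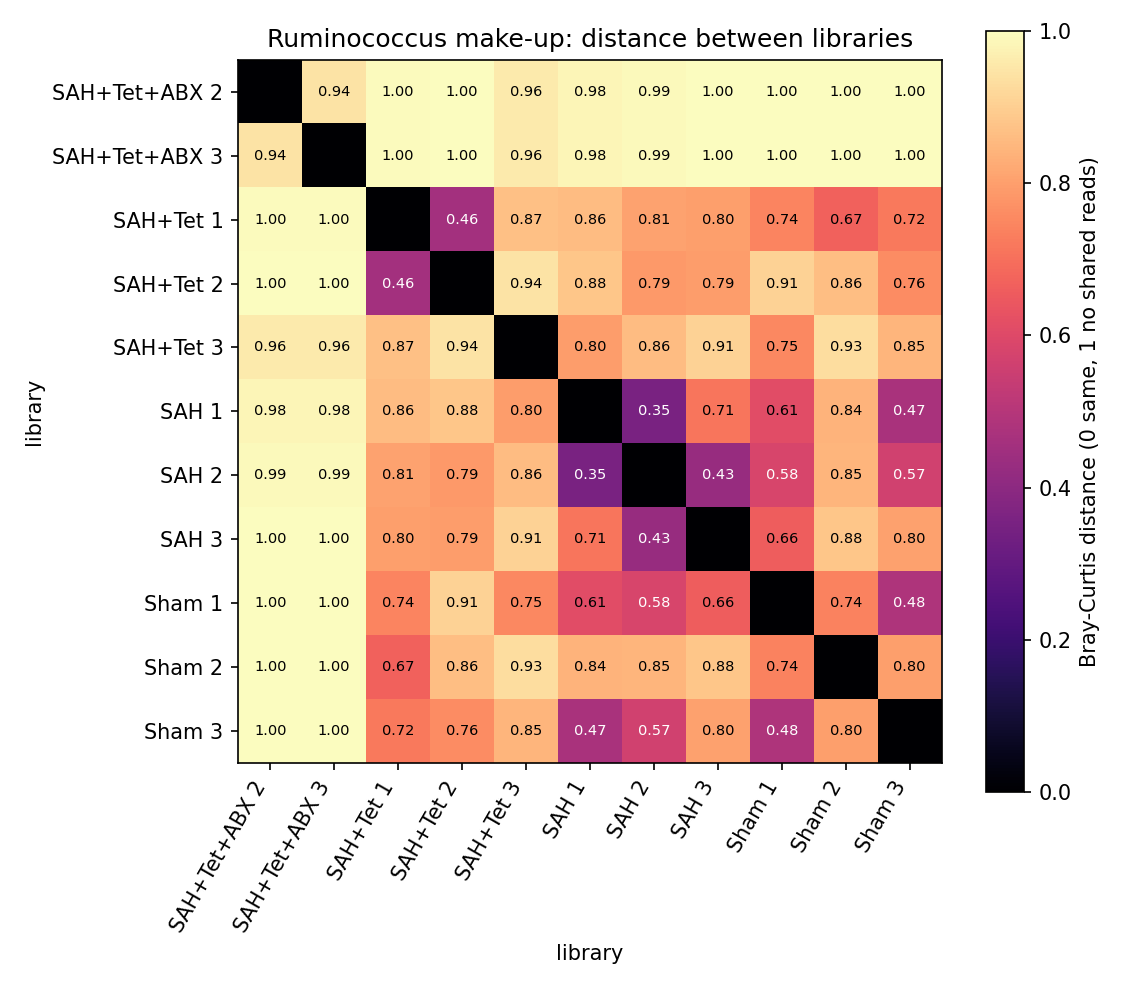
Bray-Curtis distance between the Ruminococcus profiles of 11 libraries (0 same, 1 no shared reads), with both axes in the order SAH+Tet+ABX, SAH+Tet, SAH and Sham. The smallest distance is 0.353, between SAH 1 and SAH 2, and the 2 SAH+Tet+ABX libraries are far from each other and from all others.

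Of the 499 Ruminococcaceae ASVs, 187 had enough reads to be tested over all 12 libraries and 178 over the 9 without antibiotics. An ASV that passes this filter through 1 group has to differ from an empty group, so the counts below describe the tested ASVs and are set beside those of the whole table. In SAH+Tet+ABX against SAH+Tet, 27 of 187 passed, all lower, among them 8 of 42 Ruminococcus ASVs (edgeR). Across the table as a whole, 10.3% of ASVs passed and 9.73% were lower, against 14.4% of the Ruminococcaceae ASVs. Over the 4 groups 41 of 187 passed, 8 of them Ruminococcus (18.0% of all ASVs). These counts were unstable: with SAH+Tet+ABX 3 left out, 0 passed in the antibiotic comparison, and with SAH 1 left out 59 did. Other single libraries moved it to 2 (without SAH+Tet+ABX 1), 4 (SAH+Tet+ABX 2), 5 (Sham 3), 8 (Sham 1), 11 (SAH+Tet 1), 13 (SAH+Tet 2 or SAH 2), 17 (Sham 2) and 48 (SAH+Tet 3). Over the 4 groups 0 passed with depth class in the fit or without any 1 Sham library, any 1 SAH+Tet+ABX library or SAH 2. In SAH against Sham, SAH+Tet against SAH and SAH+Tet against Sham, 0 of 178 passed (edgeR), and 0.0% of all ASVs did. At an unadjusted p below 0.05 there were 41, 36 and 31, against 24.2, 20.8 and 19.1% of all ASVs. In the same order DESeq2 called 36, 27 and 20 (17.7, 13.2 and 12.1% of all ASVs) and limma 24, 7 and 16 (11.8, 4.91 and 9.55% of all ASVs), of 178 each time. The family's shares by these rules were 23.0, 20.2 and 17.4%, 20.2, 15.2 and 11.2%, and 13.5, 3.93 and 8.99%, near the background.

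The ASVs with the lowest p in the antibiotic comparison were each at 0 in SAH+Tet+ABX and present in all 9 other libraries. Negativibacillus ASV 2 made up 0.0166, 0.0182 and 0.0603% in SAH+Tet, 0.0177, 0.0113 and 0.0127% in SAH and 0.0319, 0.0652 and 0.0725% in Sham, with 0 reads in every library of SAH+Tet+ABX (at least 24.2-fold lower than in SAH+Tet, adjusted p = 0.017, edgeR). Negativibacillus ASV 1, by contrast, made up 0, 0.2 and 0.0662% in SAH+Tet+ABX, 0.0227, 0.024 and 0.0708% in SAH+Tet, 0.108, 0.0578 and 0.0555% in SAH and 0.0361, 0.075 and 0.0844% in Sham, so 1 variant of the genus was undetected where the other reached its highest value. Unnamed Ruminococcaceae ASV 3 made up 0.0821, 0.186 and 0.357% in SAH+Tet, 0.00886, 0.00489 and 0.0778% in SAH and 0.146, 0.00662 and 0.0371% in Sham, with 0 reads in every library of SAH+Tet+ABX (at least 159-fold lower). Family-labelled ASV 2 made up 0.0059, 0.0652 and 0.0101% in SAH+Tet, 0.146, 0.0636 and 0.066% in SAH and 0.0313, 0.0128 and 0.0425% in Sham, with 0 reads in every library of SAH+Tet+ABX (at least 20.7-fold lower). Unnamed Ruminococcaceae ASV 9 and uncultured ASV 6 were at least 29.2-fold and 7.14-fold lower. All 5 were at 0 in every antibiotic library. Negativibacillus ASV 2 and unnamed Ruminococcaceae ASV 16 were also among the 5 ASVs with the lowest p over the 4 groups. The rest of these were Ruminococcus ASV 14, ASV 17 and ASV 30. They met the minimum of reads only through groups where they were high, SAH and, for ASV 14, also SAH+Tet. Their place by p is therefore no evidence of a difference, and their values are given as a description. Ruminococcus ASV 30 made up 0.000218, 0 and 0% in SAH+Tet, 0.00806, 0.0933 and 0.197% in SAH and 0.000807, 0.00181 and 0% in Sham, with 0 reads in every library of SAH+Tet+ABX, and its SAH libraries lay above all others. Unnamed Ruminococcaceae ASV 16 made up 0.0105, 0.00484 and 0.00528% in SAH+Tet, 0.00886, 0.00828 and 0.0196% in SAH and 0.0323, 0.0187 and 0.0437% in Sham, with 0 reads in every library of SAH+Tet+ABX.

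UBA1819, Paludicola and Incertae Sedis each held a variant under antibiotics that was not seen in the other groups. UBA1819 ASV 1 made up 0.0161, 0.0713 and 0.0466% in SAH+Tet+ABX, with 0 reads in every library of SAH+Tet, SAH and Sham. UBA1819 ASV 2 made up 0.00655, 0.0029 and 0.0106% in SAH+Tet, 0, 0.00151 and 0.00535% in SAH and 0.0234, 0.0271 and 0.0267% in Sham, with 0 reads in every library of SAH+Tet+ABX, and UBA1819 ASV 3 made up 0.014, 0.000967 and 0.00924% in SAH+Tet and 0.00262, 0.00281 and 0.00154% in Sham, with 0 reads in every library of SAH+Tet+ABX and SAH. The first was confined to the 3 antibiotic libraries and the other 2 were missing from them, while the summed genus overlapped between the groups. Paludicola ASV 1 made up 0.0203, 0.00555 and 0.0127% in SAH+Tet+ABX, with 0 reads in every library of SAH+Tet, SAH and Sham, and Incertae Sedis ASV 6 made up 0.0899, 0.00897 and 0.0229% in SAH+Tet+ABX, with 0 reads in every library of SAH+Tet, SAH and Sham. Incertae Sedis ASV 1 made up 0.00236, 0.0628 and 0.207% in SAH+Tet+ABX, with 0 reads in every library of SAH+Tet, SAH and Sham. UBA1819 ASV 1, Paludicola ASV 1 and Incertae Sedis ASV 6 did not pass against SAH+Tet with edgeR. They met the minimum of reads for testing through SAH+Tet+ABX alone, so that test cannot serve as evidence on them. Anaerotruncus ASV 1 made up 0.124, 0.0256 and 0% in SAH+Tet+ABX, 0.00917, 0.0838 and 0.0572% in SAH+Tet, 0, 0 and 0.0138% in SAH and 0, 0.0114 and 0% in Sham, and Anaerotruncus ASV 2 made up 0.22, 0.0205 and 0.00817% in SAH+Tet+ABX and 0.0024, 0.0155 and 0% in SAH+Tet, with 0 reads in every library of SAH and Sham. Anaerotruncus ASV 3 made up 0.0522, 0.00503 and 0.0691% in SAH+Tet and 0, 0.00963 and 0.0173% in Sham, with 0 reads in every library of SAH+Tet+ABX and SAH, and so had reads in all SAH+Tet libraries and in no SAH or SAH+Tet+ABX library.

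[Eubacterium] siraeum group ASV 1 made up 0.316, 0.019 and 0.00352% in SAH+Tet, 0, 0.00113 and 0.0147% in SAH and 0.0196, 0 and 0% in Sham, with 0 reads in every library of SAH+Tet+ABX, and ASV 2 of the group made up 0.144, 0.00387 and 0.0088% in SAH+Tet and 0.0302, 0.0143 and 0.0541% in SAH, with 0 reads in every library of SAH+Tet+ABX and Sham. ASV 2 was, like Ruminococcus ASV 14, in all SAH and SAH+Tet libraries and in no Sham library. Unnamed Ruminococcaceae ASV 1 made up 0.0493, 0.272 and 0% in SAH+Tet and 0.683, 0.0415 and 0.299% in Sham, with 0 reads in every library of SAH+Tet+ABX and SAH, and family-labelled ASV 1 made up 0.757, 0.112 and 0% in SAH+Tet and 0.0246, 0.244 and 0.439% in Sham, with 0 reads in every library of SAH+Tet+ABX and SAH. Both had reads in all Sham libraries, in SAH+Tet 1 and SAH+Tet 2 and in no SAH library. Their folds in SAH against Sham were at least 420-fold and at least 290-fold lower (adjusted p = 0.11 and 0.112, edgeR). Negativibacillus ASV 4 made up 0, 0.00342 and 0% in SAH+Tet+ABX and 0.0334, 0.0158 and 0.0103% in SAH, with 0 reads in every library of SAH+Tet and Sham. Unnamed Ruminococcaceae ASV 2 made up 0.0777, 0.0164 and 0.851% in SAH+Tet, 0.0157, 0.00395 and 0% in SAH and 0.000605, 0.00321 and 0% in Sham, with 0 reads in every library of SAH+Tet+ABX, led by SAH+Tet 3.

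Counted over the tested ASVs, such all-or-none variants were about as common in the family as in the whole table in the comparisons without antibiotics. In SAH against Sham, 6 of 178 had reads in all 3 SAH libraries and none in Sham (2.85% of all ASVs), and 26 had reads in all 3 Sham libraries and none in SAH (11.8% of all ASVs). In SAH+Tet against SAH, 8 of 178 were in all SAH+Tet and no SAH libraries (4.69% of all ASVs) and 5 in all SAH and no SAH+Tet libraries (2.28% of all ASVs). Between SAH+Tet and Sham the counts were 4 in SAH+Tet (2.19% of all ASVs) and 15 in Sham (8.80% of all ASVs). The family's own percentages were 3.37 and 14.6%, 4.49 and 2.81%, and 2.25 and 8.43%, each near the background. With antibiotics, 4 of 187 were in all antibiotic and no SAH+Tet libraries (1.75% of all ASVs), and 47, or 25.1%, were in all SAH+Tet and no antibiotic libraries (17.3% of all ASVs). Of those 47, 11 were Ruminococcus.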

How the data were processed

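Faecal DNA of 12 libraries, 3 in each of 4 groups, was measured by 16S rRNA gene sequencing. The authors deposited raw read counts per ASV beside each lineage, and the per-sample tables held the same values for all 12 libraries. The tools fastp and cutadapt are named per the submitters' processing notes, without versions. The denoiser, amplified region, primers and naming database were not given in the sources used here. They set how many ASVs are reported and how far they are named. A further treatment label, the same for all samples and unrelated to rat faeces, was not used. Labels for time and batch did not differ between samples.

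The 2 ASVs of Eukaryota were left out of 7240. Library totals of 211450 to 531426 reads set the precision. Genus and ASV counts were tested in R 4.3.3 with edgeR 4.0.16 (quasi-likelihood, TMM scaling, groups as the only term, a minimum of 10 reads in 3 or more of the fitted libraries, Benjamini-Hochberg adjustment over all tested features, threshold 0.05). Comparisons without antibiotics came from a fit of 9 libraries and the others from all 12. The SE is the absolute log2 fold change divided by the square root of F, not a fitted error. Shares were tested on the log2 scale (0.5 reads added) by exact permutation of the one-way F statistic, two-sided by its nature. Alternatives were DESeq2 1.42.0, limma 3.58.1 on centred log-ratios, no scaling, no filter, depth class or a replicate block as a term, 5 reads added, no logarithm, other library totals, other limits of absence, and each library left out. The tests were checked on simulated data.

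The family, the lists of genera and the tests were chosen with earlier results of these data known. By rule, genera with a mean share of at least 0.01%, the 15 most abundant Ruminococcus ASVs, the 3 most abundant of other genera, ASVs in all libraries of a group and none of another (5 a direction) and the 5 lowest p per comparison could be named, and those the results turn on are printed. Ruminococcus ASV 20 and ASV 29 were added after their values were seen. DNA sequences of the ASVs were not used here.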

Additional observations from a re-analysis of the deposited data

How the results depend on the processing

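Counts of called ASVs depended on the tool and on single libraries, and the causes were not tested. With DESeq2, 2 of 14 genera of the family were called in SAH against Sham (49 of 194 in the whole table). In SAH+Tet against SAH 1 was called (30 of 194 in the whole table) and over the 4 groups 8 (102 of 202). With edgeR they were 0, 0 and 4 (0, 0 and 70 in the whole table). For ASVs in SAH against Sham, edgeR called 0 of 178. There DESeq2 called 36 (404 of 2283 in the whole table) and limma on centred log-ratios 24 (270 of 2283). Without the filter on low counts edgeR called 22 of 472 (160 of 6720 in the whole table). On only the 2 groups compared it called 30 of 138 (308 of 1703). Between SAH+Tet and SAH the family's counts were 27 with DESeq2, 7 with limma and 11 without the filter (301, 112 and 90 in the whole table). In SAH+Tet against Sham they were 20, 16 and 9 (276, 218 and 65 in the whole table). On only those 2 groups 15 of 146 passed (208 of 1798 in the whole table). With antibiotics, the count of 27 ASVs was 11 without TMM, 79 with DESeq2, 12 with limma and 11 with depth class as a term. In the whole table the count of 247 was then 159, 886, 234 and 145 of 2394. Of the family's calls, 2 of the 79 with DESeq2 and 5 of the 12 with limma were higher in SAH+Tet+ABX. Only 7 of the 27 passed again with limma. Leaving out 1 library gave 0 to 59 in the family and 0 to 560 in the whole table. Over the 4 groups the count of 41 ASVs was 62 with limma (778 of 2394 in the whole table) and 82 without the filter (1017 of 7238). It was 0 with depth class as a term (0 in the whole table) and 0 to 44 with 1 library left out (0 to 487). The family share's adjusted p of 0.03025 (exact permutation) was 0.06791 without the logarithm, 0.1238 within depth classes and 0.03479 to 0.0833 with 1 library left out. The share of SAH+Tet Ruminococcus reads absent from Sham was 9.85 to 38.4% with 1 library left out. Of the family's genera, 6 passed the exact permutation over 4 groups (64 of 202 in the whole table). Of these 6, 0 did so without the logarithm (11 of 202 in the whole table). Within depth classes 1 did, Pygmaiobacter (18 of 202 in the whole table). In SAH+Tet+ABX against SAH+Tet, no ASV that passed with edgeR and no genus that passed in either setting turned its direction. Genera that passed in neither did: Negativibacillus (0.10 on the log2 scale) was -0.57 with depth class, -0.23 with the block, -0.05 without TMM and -0.14 with limma, and Incertae Sedis (-0.68), uncultured (-0.31) and Candidatus Soleaferrea (-0.83) were 1.48, 1.68 and 1.73 with limma, with uncultured also 0.23 with DESeq2 and 0.01 on only the 2 groups. Replicate numbers are shared by the groups, and whether they pair the libraries could not be settled. Deviations of same-numbered libraries from their group means correlated between -0.585 and 0.492. Each Sham library correlated best with the SAH library of its own number, at 0.062 to 0.1. In no other pair of groups did this hold for every library. Deviations of 3 libraries from their own mean depend on each other, so this check cannot decide. With the replicate block, 15 ASVs of the family passed in SAH+Tet+ABX against SAH+Tet (99 of 2394 in the whole table). The family share then had an adjusted p of 0.1013 (exact permutation), and 0 genera of the whole table passed the permutation. Depth limits absence to 3 reads of a library, and in SAH+Tet+ABX 1 it leaves 4 Ruminococcus reads, too few to describe the genus there.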
